A study of Mus musculus with 8 samples.

Results

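The annexin genes were examined in RNA-seq of the mouse left ventricle, and their members were the rows of the deposited expression table named Anxa1, Anxa2, Anxa3, Anxa4, Anxa5, Anxa6, Anxa7, Anxa8 and Anxa11. All 9 genes were found once each among the 55679 genes of the table, and all 9 passed the filter on low values, which left 19364 genes. The samples were left ventricles of male wild-type C57BL/6J mice, 4 infused with saline (control) and 4 infused with angiotensin II (ANG II, a peptide hormone that constricts vessels and raises blood pressure) at 1500 ng/kg/min, both for 7 days from a pump under the skin. The study asked which genes change when ANG II causes hypertension and thickening of the ventricle, and values are given in FPKM, the fragments of a gene scaled to its transcript length and to the size of the library.

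Annexins are cytosolic proteins that bind acidic phospholipids, among them phosphatidylserine, when calcium rises. Each has a conserved core that carries the calcium sites and a variable amino-terminal tail that binds partners, in several members a small S100 protein. They are known for membrane repair, vesicle traffic and membrane scaffolding, and some act outside the cell: Anxa1 limits inflammation through formyl peptide receptors, Anxa2 assembles plasminogen and its activator at the cell surface, and Anxa5 covers exposed phosphatidylserine and is the usual probe for dying cells. In the heart, annexins are made by myocytes as well as by fibroblasts, endothelial cells and leukocytes, so that the RNA of a whole ventricle holds all of these sources.

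Of the 9 annexins, 6 rose in ANG II: Anxa1, Anxa2, Anxa4, Anxa8, Anxa3 and Anxa5, in the order of their log2 fold change of FPKM + 1. Anxa5 was not called with median-of-ratios scaling, with quantile normalization or without the mitochondrially encoded and 10 most abundant genes in the total, which left 5. Anxa7 and Anxa6 had higher means by less than the fold change threshold (Anxa6 not with median-of-ratios scaling, where its log2 fold change was -0.025), and Anxa11 was the only one of the 9 with a lower mean. The summed level of the 9 genes was 415 ± 24.5 FPKM in control against 709 ± 51.6 FPKM in ANG II (SD, n = 4 per group), which is 1.71 times as high. Calls required an adjusted p-value under 0.05 (limma, with Benjamini-Hochberg adjustment over all genes tested) together with an absolute log2 fold change of FPKM + 1 above 0.5. By this rule 15.4% of all tested genes were called in either direction and 14% were called higher. Among genes averaging 1 FPKM or more, as all 9 annexins do, 20.7% were called in either direction, and the same number of annexins, 6. At any fold change, 8 of the 9 annexins had an adjusted p-value under 0.05, against 33.3% of all tested genes. In those 8 genes every ANG II library lay above every control library, against 28.7% of all tested genes, and 33.7% did not overlap in either direction. A log2 fold change above 0 was found for the same 8 and for 71.5% of all tested genes. The median log2 fold change was 0.87 over the 9 annexins and 0.15 over all tested genes.

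**Figure D1:**
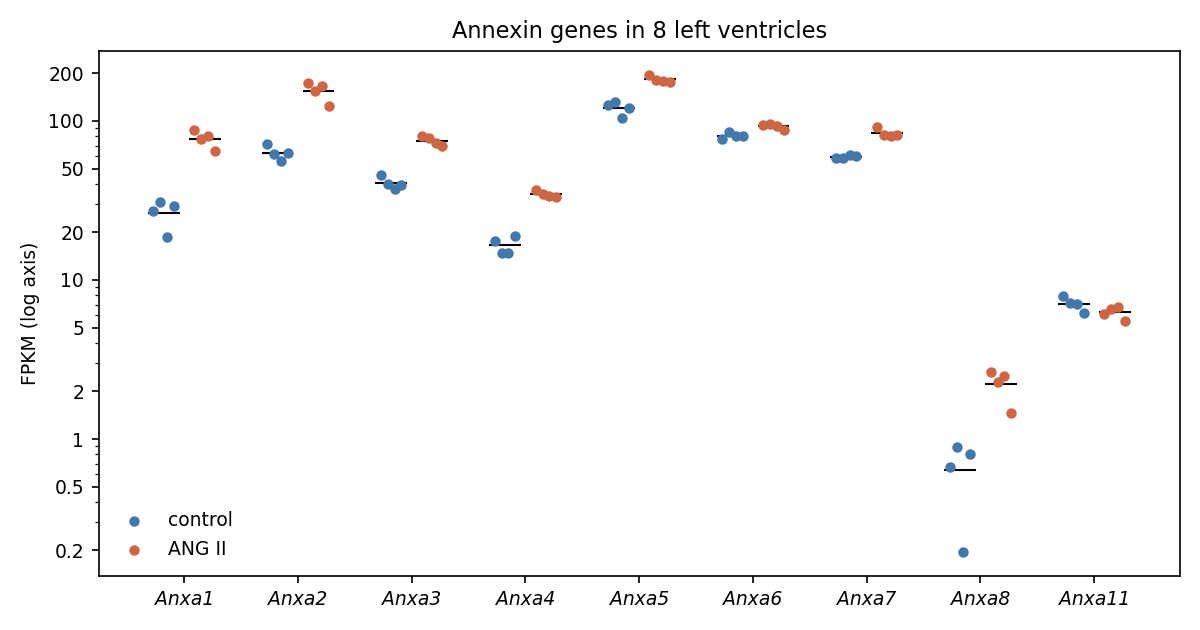
FPKM of each annexin gene on a log axis; points are the 4 control (blue) and 4 ANG II (orange) libraries and black lines are group means. The groups part at every gene except Anxa11, and control 3 lies apart at Anxa8, with 0.195 FPKM.

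The 2 libraries that stood lowest were the same for most of the family. Control 3 had the lowest value of its group at 6 of the 9 annexins and ANG II 4 at 8 of 9, while ANG II 1 had the highest value of its group at 7 of 9. Over all tested genes, the median deviation from the group mean was between -0.027 and 0.023 on the log2 scale in every library. The libraries held 14455654 to 16564828 fragments. Whole ventricles were sequenced, so that more cells of a type and more RNA per cell cannot be told apart at any of the genes below.

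The core promoters of the 2 annexins with the highest log2 fold change of FPKM + 1 (Anxa8 passes them with a pseudocount of 0.1) and of the 1 annexin with a lower mean are shown for comparison, as the 120 bases before the start of transcription in RefSeq (GRCm38.p6), with capitals marking a TATA box (TATAAA), a GC box (GGGCGG) or an AP-1 site (TGACTCA or TGAGTCA) on either strand.
Anxa1, minus strand, chr19:20390672-20390791: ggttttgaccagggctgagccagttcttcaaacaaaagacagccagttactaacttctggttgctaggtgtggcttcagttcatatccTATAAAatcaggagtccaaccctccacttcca
Anxa2, plus strand, chr9:69453563-69453682: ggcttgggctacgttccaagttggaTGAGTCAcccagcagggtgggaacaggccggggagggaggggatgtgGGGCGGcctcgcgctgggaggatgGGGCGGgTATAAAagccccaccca
Anxa11, plus strand, chr14:25842035-25842154: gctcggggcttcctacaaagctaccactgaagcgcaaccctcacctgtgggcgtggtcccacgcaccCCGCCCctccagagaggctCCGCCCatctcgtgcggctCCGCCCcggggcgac

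A promoter was given for 7 of the 9 genes, with 2 each for Anxa4 and Anxa7, and for neither Anxa3 nor Anxa6. Within the 250 bases before the start, TATAAA was found at Anxa1, beginning 32 bases upstream, and at Anxa2, beginning 17 bases upstream, and at none of the other 5. It was found in 12.4% of all 32851 promoters of that length. An AP-1 site was found only at Anxa2 among the 7, 95 bases upstream, and in 4.46% of all promoters. A GC box was found at Anxa2, Anxa7 and Anxa11, and in 32.7% of all promoters, and CCAAT at none of the 7 and in 33.8% of all. In Anxa2 the TATA box and the nearest GC box stood beside each other without overlap. These matches describe letters in a window and no binding was measured.

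Anxa1 and Anxa2 are the annexins whose tails bind S100a11 and S100a10. Anxa1 (ENSMUSG00000024659, chromosome 19, 20373428 to 20390944, minus strand, GRCm38) read 26.95, 30.98, 18.6 and 29.0 FPKM in the 4 controls and 87.95, 76.8, 80.1 and 64.5 FPKM in the 4 ANG II libraries, each in the order of replicates 1 to 4 as below. The lowest ANG II library was more than 2 times the highest control, and control 3 lay below the other controls. Its mean went from 26.4 ± 5.43 to 77.3 ± 9.76 FPKM (SD, n = 4 per group), 2.93 times as high, and its log2 fold change of 1.53 with SE 0.149 (adjusted p = 7.50e-05 by limma) was the highest of the 9 on the scale of FPKM + 1, whereas Anxa8 was higher with a pseudocount of 0.1 (1.75 against 1.56). Its values rested on 285 to 1232 fragments per library.

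Anxa2 (ENSMUSG00000032231, chromosome 9, 69453620 to 69491795, plus strand) read 71.3, 62.3, 56.0 and 62.8 FPKM in the 4 controls and 173, 155, 167 and 125 FPKM in the 4 ANG II libraries. The groups stood apart, with ANG II 4 below the other 3 ANG II libraries. Its mean went from 63.1 ± 6.29 to 155 ± 21.3 FPKM (SD, n = 4 per group), with a log2 fold change of 1.27 with SE 0.105 (adjusted p = 3.09e-05 by limma).

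Anxa3, Anxa4 and Anxa5 have short tails and consist of little beyond the membrane-binding core. Anxa3 (ENSMUSG00000029484, chromosome 5, 96793339 to 96845966) read 45.4, 40.2, 37.5 and 39.6 FPKM in the 4 controls and 80.5, 77.7, 72.4 and 70.02 FPKM in the 4 ANG II libraries. The lowest ANG II library was well above the highest control, and it rose by 0.87 on the log2 scale with SE 0.0693 (adjusted p = 2.50e-05 by limma). Anxa4 (ENSMUSG00000029994, chromosome 6, 86736840 to 86793584) read 17.5, 14.8, 14.7 and 18.95 FPKM in the 4 controls and 36.9, 34.9, 33.9 and 33.2 FPKM in the 4 ANG II libraries. The groups stood clear of each other, with 2.11 times the control mean and a log2 fold change of 1.04 with SE 0.0851 (adjusted p = 2.93e-05 by limma).

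Anxa5 (ENSMUSG00000027712, chromosome 3, 36448923 to 36475894), the annexin with the highest deposited FPKM in both groups, read 126, 131, 105 and 120 FPKM in the 4 controls and 195, 180, 179 and 174 FPKM in the 4 ANG II libraries. All ANG II libraries were above all controls, and the fold change was smaller than for Anxa1 to Anxa4. Its log2 fold change was 0.60 with SE 0.0716 (adjusted p = 2.27e-04 by limma), just above the threshold of 0.5. With median-of-ratios scaling of the libraries it was 0.37, with quantile normalization 0.40, and without the mitochondrially encoded and 10 most abundant genes in the total 0.45, and Anxa5 was not called under these 3.

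Anxa8 (ENSMUSG00000021950, chromosome 14, 34085981 to 34100571), known mainly from epithelia, was the least abundant. It was at 0.672, 0.887, 0.195 and 0.804 FPKM in control, on 15, 20, 5 and 19 fragments, and at 2.65, 2.27, 2.48 and 1.46 FPKM in ANG II, on 62, 56, 58 and 36 fragments. Its controls varied most within the family, with a coefficient of variation of 48.3% against 2.02 to 20.6% for the other 8 genes. Its mean was 3.46 times as high in ANG II, and its log2 fold change of FPKM + 1 was 0.98 with SE 0.177 (adjusted p = 0.00230 by limma). At this level the added 1 FPKM shrinks the fold change: with a pseudocount of 0.1 it was 1.75. Of 5 markers of the mesothelium, the epithelial layer on the heart's surface, 0 were called by limma or by voom (a limma method for counts) on recovered fragments, against 15.4% and 20.9% of all genes tested by each, 0 had an unadjusted p-value under 0.05, against 43%, and their summed level was 5.74 to 7.44 FPKM in control and 5.72 to 8.35 FPKM in ANG II. The part of these cells in the Anxa8 values was not tested.

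Anxa6, Anxa7 and Anxa11 are the annexins of other build. Anxa6 carries a duplicated core, and Anxa7 and Anxa11 have long tails that bind calcium sensors of the penta-EF-hand family. None of the 3 was called. Anxa6 (ENSMUSG00000018340, chromosome 11, 54979108 to 55033445) read 77.5, 84.7, 80.004 and 79.8 FPKM in the 4 controls and 94.8, 95.7, 92.6 and 87.8 FPKM in the 4 ANG II libraries. The groups did not overlap, but its log2 fold change of 0.20 with SE 0.0479 (adjusted p = 0.00930 by limma) was close to the median of all tested genes, and it was -0.025 with median-of-ratios scaling (adjusted p = 0.782).

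Anxa7 (ENSMUSG00000021814, chromosome 14, 20455260 to 20480133) read 58.5, 58.5, 60.7 and 60.5 FPKM in the 4 controls and 91.9, 81.5, 79.97 and 81.2 FPKM in the 4 ANG II libraries. It had the lowest coefficient of variation of the family in control, 2.02%, and ANG II 1 stood above the other ANG II libraries. Its log2 fold change was 0.48 with SE 0.0535 (adjusted p = 1.52e-04 by limma), just under the threshold, and 0.50, past it, without ANG II 3. Anxa7 and Anxa5 were thus the members nearest the threshold on either side, with 0.48 and 0.60.

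Anxa11 (ENSMUSG00000021866, chromosome 14, 25842156 to 25886804) read 7.89, 7.17, 7.04 and 6.18 FPKM in the 4 controls and 6.15, 6.59, 6.79 and 5.49 FPKM in the 4 ANG II libraries. The groups overlapped, and its log2 fold change was -0.15 with SE 0.0949 (adjusted p = 0.250 by limma; exact two-sided permutation p = 0.143, n = 4 each). It was the only member of the list whose groups overlapped. Of its 50-base words, 16.2% were found again in other genes' transcripts, chiefly those of Gm2260, which was listed at 0 in all 8 libraries, and 2.73% of its exon length lies under Anxa11os on the opposite strand, so that its value is uncertain. The other 8 annexins shared at most 1.79% of their words. For each of those 8 the exact two-sided permutation p was 0.0286 (n = 4 each), the smallest possible.

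The scaling of the libraries set part of these values. Median-of-ratios scaling moved the median of all tested genes from 0.15 to 0.0040, and the share of higher calls among all calls from 90.8% to 67.5%, or to 58.9% with quantile normalization. Relative to the median of all genes as deposited, the log2 fold changes were 1.38 for Anxa1, 1.13 for Anxa2, 0.89 for Anxa4, 0.83 for Anxa8, 0.72 for Anxa3, 0.45 for Anxa5, 0.33 for Anxa7, 0.05 for Anxa6 and -0.30 for Anxa11. With either scaling the first 5 stayed called and higher. Anxa11 then had a log2 fold change of -0.35 (adjusted p = 0.0189) with median-of-ratios scaling and of -0.44 (adjusted p = 0.00556) with quantile normalization, both by limma with Benjamini-Hochberg adjustment and neither past the fold change threshold.

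**Figure D2:**
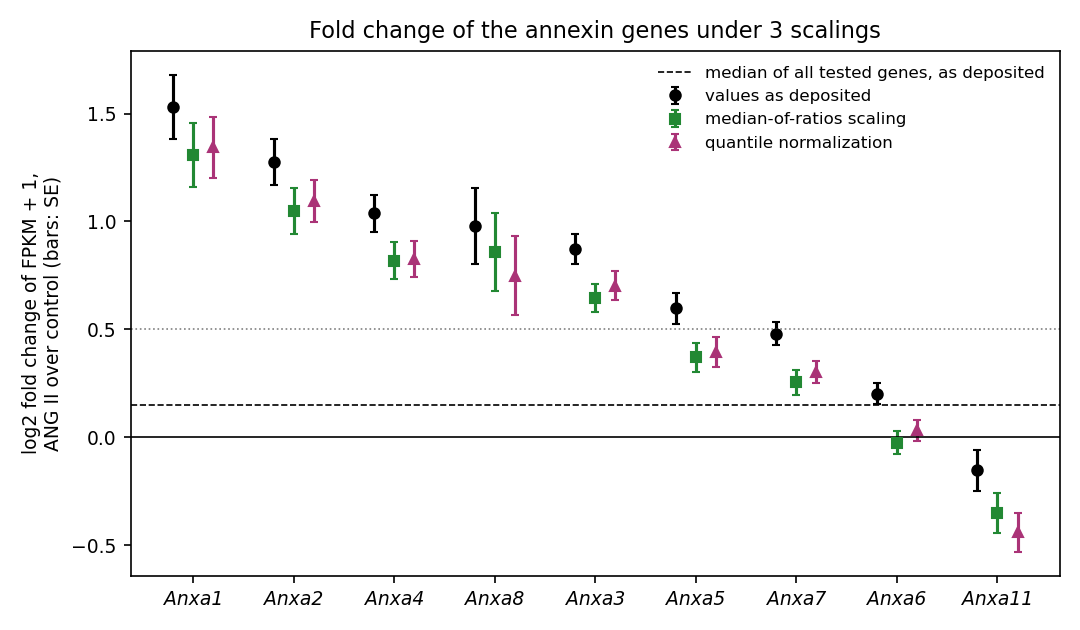
Log2 fold change of FPKM + 1 (ANG II over control, bars are SE) of the 9 annexins with the values as deposited, with median-of-ratios scaling and with quantile normalization; the dotted line is the threshold of 0.5 and the dashed line the median of all tested genes, 0.15. Anxa1, Anxa2, Anxa4, Anxa8 and Anxa3 stay above 0.5 in all 3, whereas Anxa5 drops below it and Anxa6 lies near 0 in both alternatives.

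The order of levels was compared in FPKM, which is per length of transcript. In control it ran Anxa5, Anxa6, Anxa2, Anxa7, Anxa3, Anxa1, Anxa4, Anxa11 and Anxa8, and only the ranges of Anxa2 and Anxa7 and of Anxa1 and Anxa4 overlapped between neighbours. In ANG II it ran Anxa5, Anxa2, Anxa6, Anxa7, Anxa1, Anxa3, Anxa4, Anxa11 and Anxa8, and among neighbours the ranges of Anxa6 and Anxa7, of Anxa7 and Anxa1 and of Anxa1 and Anxa3 overlapped. Anxa1 thus reached the level of Anxa3, at 77.3 against 75.2 FPKM, from 26.4 against 40.7 FPKM in control. The deposited values used the mean length of all annotated transcripts, short ones included, which was 942 bases for Anxa5 and 2352 bases for Anxa6. With the length of the longest transcript, a choice made after seeing the data, Anxa6 was above Anxa5 in control (76.1 against 65.5 FPKM), Anxa2 was below Anxa6 in ANG II as well (76.8 against 87.6 FPKM), and 5 of 9 genes kept their place in ANG II.

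Each gene's share of the summed annexin FPKM does not depend on a scaling factor applied to a whole library. The share of Anxa2 was 14.5 to 16.5% in the controls and 19.4 to 23.3% in ANG II, and that of Anxa1 was 4.91 to 7.195% and 10.03 to 11.4%. The share of Anxa6 went the other way, from 17.9 to 21.1% in control to 12.3 to 13.7% in ANG II, as did that of Anxa11, from 1.48 to 1.86% to 0.800 to 0.951%. At 8 of the 9 genes the groups did not overlap: Anxa1, Anxa2, Anxa4 and Anxa8 took a larger share in ANG II and Anxa5, Anxa6, Anxa7 and Anxa11 a smaller one. At Anxa3 the shares overlapped, with 9.81 ± 0.532% in control against 10.6 ± 0.376% in ANG II (SD, n = 4 per group). The shares of a library have a fixed sum, so that a larger share of some genes makes that of others smaller. The mean FPKM of Anxa5, Anxa6 and Anxa7 was itself 1.51, 1.15 and 1.40 times as high in ANG II. The shares also rest on the transcript lengths of the deposited values. They are within the family, so that no count over all genes stands beside them. These shares are given as a description, with no test.

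**Figure D3:**
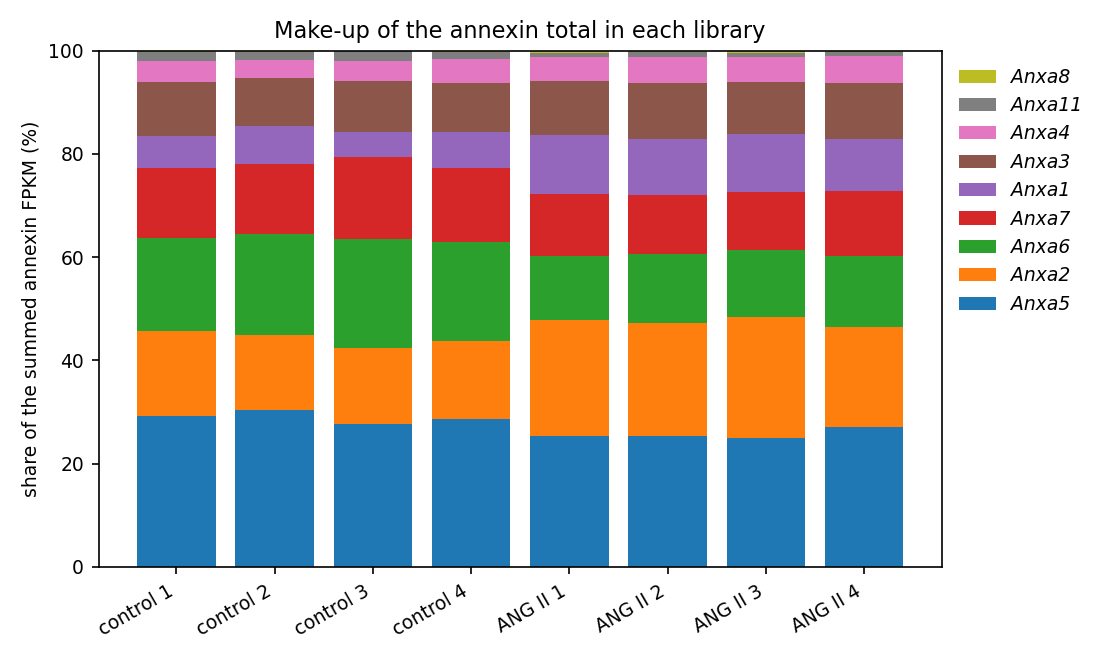
Share of each annexin in the summed annexin FPKM (%), 1 stacked bar per library. The Anxa2 share is 14.5 to 16.5% in the 4 controls and 19.4 to 23.3% in the 4 ANG II libraries, and the Anxa6 share is 17.9 to 21.1% in control and 12.3 to 13.7% in ANG II.

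Within each library, 5 ratios were compared, 2 of an annexin to its S100 partner and 3 between annexins. Anxa2 over S100a10 was 0.651, 0.360, 0.623 and 0.417 on the log2 scale in control and 0.952, 1.19, 1.12 and 0.904 in ANG II. Every ANG II ratio was above every control ratio, so that Anxa2 went from 1.43 to 2.06 times the FPKM of S100a10, a log2 difference of 0.53 (exact two-sided permutation p = 0.0286, n = 4 each; 0.0476 adjusted over the 5 ratios). Anxa1 over S100a11 was -0.22 ± 0.219 in control and -0.34 ± 0.106 in ANG II (SD), with overlapping groups (exact two-sided permutation p = 0.400, n = 4 each).

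Anxa5 over Anxa6 was higher in all 4 ANG II libraries, with a log2 difference of 0.40, and so was Anxa7 over Anxa11, with 0.66 (exact two-sided permutation p = 0.0286, n = 4 each; 0.0476 adjusted over the 5 ratios for both). This exact p is the smallest possible for 4 against 4, and the Anxa11 values are uncertain for the shared words given above. Anxa1 over Anxa2 was -1.28 ± 0.266 in control and -0.999 ± 0.0455 in ANG II (SD), a log2 difference of 0.28 (exact two-sided permutation p = 0.0857, n = 4 each; 0.107 adjusted). Control 2, at -1.01, lay within the range of the ANG II ratios. Without it the groups parted and the difference was 0.37 (adjusted exact p = 0.0357). That value comes from the smallest exact permutation p possible for 3 against 4, 0.0286, so it adds no weight to the difference. The 4 ANG II ratios lay between -1.06 and -0.953, and the 4 control ratios between -1.59 and -1.01.

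**Figure D4:**
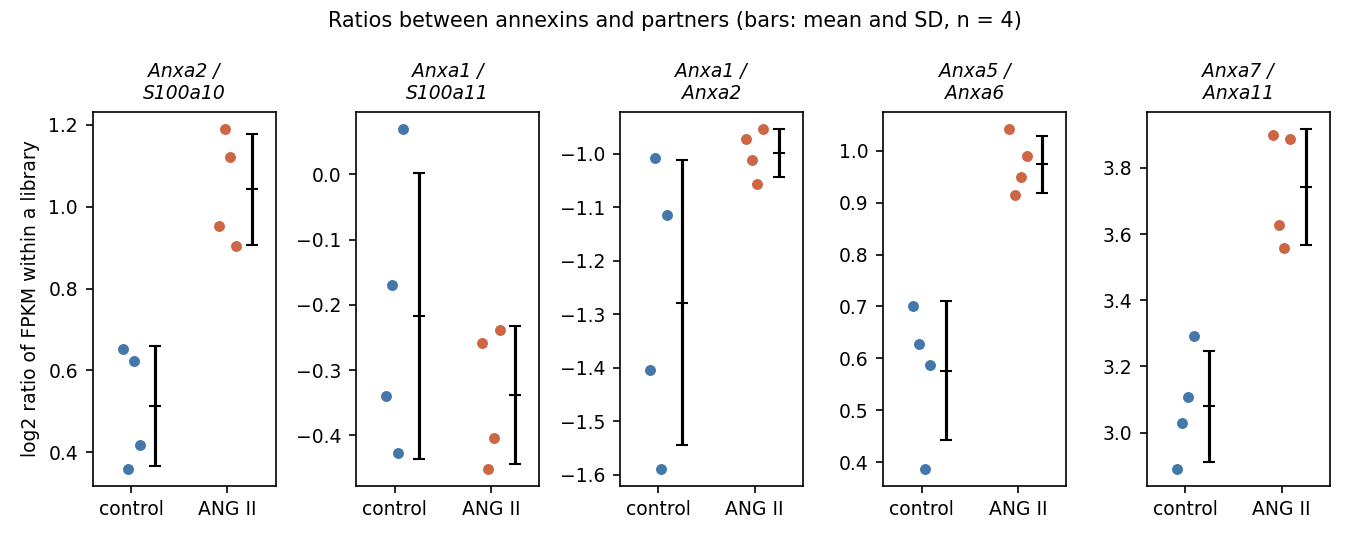
Log2 ratio of FPKM within each library for 5 pairs of genes, with the mean and SD of each group (n = 4) beside the points; each panel has its own axis. Anxa2 over S100a10, Anxa5 over Anxa6 and Anxa7 over Anxa11 part the groups, and Anxa1 over S100a11 and Anxa1 over Anxa2 do not.

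Some of the S100 genes whose proteins bind annexins rose as well. Of 6 listed, 5 were tested and 3 were called higher, against the 14% of all tested genes. S100a11 read 34.1, 34.8, 25.05 and 27.6 FPKM in the 4 controls and 105, 105, 106 and 76.1 FPKM in the 4 ANG II libraries, with ANG II 4 the lowest of its group as it was for Anxa1. Its log2 fold change was 1.66 (SE 0.133), that of S100a6 was 1.59 (SE 0.216) and that of S100a10 was 0.75 (SE 0.112), with limma adjusted p-values from 2.59e-05 to 7.78e-04. S100a11 is uncertain, since 41.1% of its 50-base words were found again in other genes' transcripts, chiefly those of Gm12854, which was at 0.859 ± 0.709 FPKM in control against 2.93 ± 0.680 FPKM in ANG II (SD, n = 4 per group). S100a1, the abundant S100 protein of cardiac myocytes, had a log2 fold change of 0.28 and was not called. S100a4 was listed at 0 in 7 of the 8 libraries, and 51.7% of its exon length lies under another gene.

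Genes of the plasminogen system, which Anxa2 and S100a10 gather at the cell surface, were called higher at 5 of 7 tested, against 14% of all tested genes, with a median log2 fold change of 0.81. The count was 4 with median-of-ratios scaling, with quantile normalization, and without control 4, ANG II 1 or ANG II 3. Serpine2, a serine protease inhibitor, went from 13.1 ± 2.00 to 51.1 ± 7.79 FPKM (SD, n = 4 per group). The urokinase receptor Plaur had a log2 fold change of 1.16 (SE 0.181) and the tissue activator Plat one of 0.81 (SE 0.0928), with limma adjusted p-values of 9.62e-04 and 1.78e-04. Plasminogen itself, Plg, was listed at 0 in 6 libraries and was not tested.

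The receptors of Anxa1 were near the detection limit. Of 7 formyl peptide receptor genes, 5 were listed at 0 in all libraries and 2 were tested, Fpr1 and Fpr2, on 0 to 15 and 0 to 17 fragments per library. By limma 0 of 2 were called, against 15.4% of all tested genes, 1 had an unadjusted p-value under 0.05, against 43%, and voom on recovered fragments called 1, against 20.9%. Fpr1 had a log2 fold change of 0.39 with SE 0.162 (adjusted p = 0.0932 by limma) and was called without control 1 (adjusted p = 0.0337) or without ANG II 4 (0.0367). These were its highest control library (0.470 FPKM) and its lowest ANG II library (0.189 FPKM), and it was not called with any other library left out. Their fragments were too few at this depth for a firm statement.

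Genes of membrane repair were called at 1 of 14, against 15.4% of all tested genes, and 8 had an adjusted p-value under 0.05 at any fold change, against 33.3%. The called gene was Myof, a ferlin that seals membranes, with a control mean of 4.71 ± 0.315 FPKM against 15.5 ± 1.39 FPKM after ANG II (SD, n = 4 per group), a rise of 1.53 on the log2 scale with SE 0.0840 (adjusted p = 3.96e-06 by limma). Its muscle relative Dysf had 16.5 ± 1.03 FPKM in control against 18.5 ± 1.75 FPKM in ANG II, and Trim72, the repair protein of striated muscle, 129 ± 11.9 and 147 ± 12.4 FPKM (SD, n = 4 per group), and neither passed the test (limma adjusted p = 0.165 and 0.0812). Within this list the median log2 fold change was 0.29.

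Phosphatidylserine is bound by Anxa5 when cells expose it. Of 16 genes for its exposure and for engulfment of the cells that show it, 14 were tested and 8 were called higher, against 14% of all tested genes, with a median log2 fold change of 0.59. Among these were the receptor kinase Axl, with a log2 fold change of 0.98 (SE 0.0794), its relative Tyro3 with 0.85 (SE 0.125), the scavenger receptor Stab1 with 0.80 (SE 0.0604) and the bridging protein Pros1 with 0.76 (SE 0.0847). With quantile normalization 5 were called. Of the penta-EF-hand family, the genes Pdcd6, Pef1, Sri and Gca were listed, and binding of each to Anxa7 or Anxa11 was not examined. By limma and by voom on recovered fragments 0 of 4 were called, against 15.4% and 20.9% of all genes tested by each. After adjustment in limma 2 of the 4 passed 0.05 at any fold change, against 33.3%. All 4 had an unadjusted p-value under 0.05, 3 with a higher and 1 with a lower mean, against 43% of all tested genes. With quantile normalization 1 of the 4 was called.

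Anxa1 is a known target of glucocorticoids. Of 9 genes that these hormones induce, 8 were tested and 2 were called higher, against 14% of all tested genes, with a median log2 fold change of -0.08. They were Fkbp5, a chaperone partner of the glucocorticoid receptor, with 1.41 (SE 0.173), and the metallothionein Mt1, with 1.09 (SE 0.113; limma adjusted p = 2.61e-04 and 1.09e-04). Tsc22d3, another standard target, had a log2 fold change of -0.04. Mt2 was listed at 0 in all 8 libraries. Of the annexin genes outside the 9 members, Anxa9 was tested, with 0.438 ± 0.302 FPKM in control against 0.590 ± 0.0427 FPKM in ANG II (SD, n = 4 per group; limma adjusted p = 0.392), while Anxa10 was listed at 0 in all 8 libraries and Anxa13 in 7.

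Markers of several cell types differed between the groups, and their counts stand against 14% of all tested genes called higher and 1.41% called lower. Of macrophage markers 8 of 8 rose, and their summed level was 292 to 369 FPKM in control and 658 to 923 FPKM in ANG II. Of fibroblast markers 7 of 7 rose, from a sum of 501 to 751 FPKM to one of 2770 to 3245 FPKM, and of neutrophil markers 4 of 5, from 3.53 to 8.10 FPKM to 9.08 to 22.7 FPKM. Endothelial markers were called at 1 of 6 and T cell markers at 2 of 5, with sums of 1.33 to 5.49 FPKM for T cells in control and 4.79 to 9.08 FPKM in ANG II, which overlap. Smooth muscle and pericyte markers were called at 2 of 6. Of cardiomyocyte markers 2 of 7 fell, Myh6 and Tnni3, and their sum was 31028 to 31903 FPKM in control and 22766 to 26364 FPKM in ANG II. No marker of these lists was at 0 in all libraries. The part of these cell types in the annexin values was not tested.

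**Figure D5:**
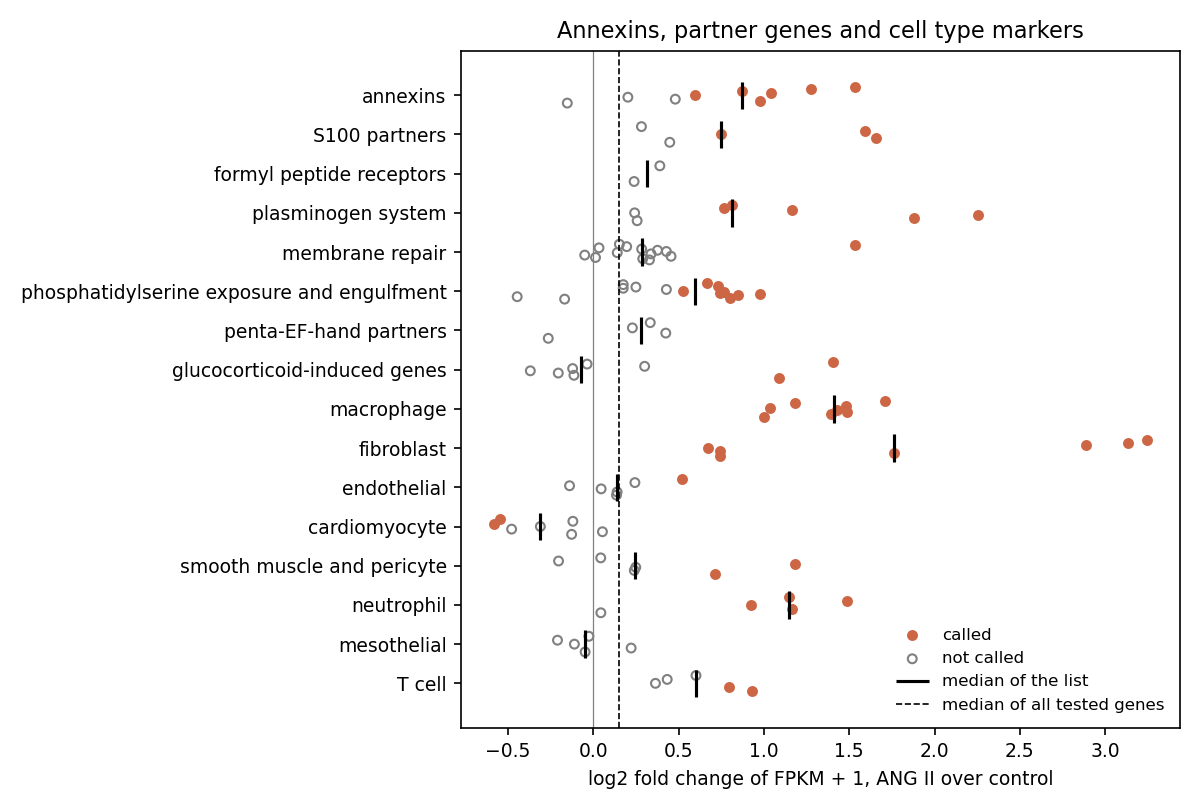
Log2 fold change of FPKM + 1 (ANG II over control) of each tested gene in the annexin family, 7 lists of partner genes and 8 lists of cell type markers; filled points were called, vertical bars are list medians and the dashed line is the median of all tested genes, 0.15. The annexin median, 0.87, lies below the medians of the macrophage (1.41) and fibroblast (1.76) markers and above that of the cardiomyocyte markers (-0.31).

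The genes whose 8 values ran closest to those of Anxa1 and Anxa2 were sought among the 12947 genes that averaged 1 FPKM or more, by the root mean square difference of log2(FPKM + 1) after subtraction of the control mean. For Anxa1 they were Rcn3 (0.0928), Efemp2 (0.101), Sulf1 (0.114), Loxl2 (0.121) and Ecm1 (0.128), with log2 fold changes from 1.41 to 1.58. For Anxa2 they were Tyms (0.0891), Pak1 (0.0970), Pcolce (0.0985), Eef1a1 (0.0987) and Tspan4 (0.103), with log2 fold changes from 1.23 to 1.37. No gene was on both lists. The measure rests on 8 libraries in 2 groups and is a description.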

How the data were processed

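Libraries of 8 left ventricles were analysed, and samples were grouped by their titles. Per the labels, mRNA was enriched on oligo(dT) beads. The authors deposited 1 table of FPKM values with 1 column per library. The submitters' processing notes name Bowtie2, HISAT and RSEM, and versions, genome build and use of strand were not given in the sources used here. Other animals of the study were not analysed here. Each gene's FPKM was multiplied by its average transcript length (GENCODE M21, GRCm38), and low products were whole multiples of a step fixed by the library, within 0.05 for 99.2 to 99.3% of values under 60 fragments in genes with 1 exon and 97.6 to 98.1% in genes with more, as all annexins have, and the step gave the fragments per library. Gene positions were taken from the same release.

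The main fit used limma 3.58.1 in R 4.3.3 (lmFit, eBayes with a trend) on log2(FPKM + 1), for genes averaging 0.1 FPKM or more, with no covariate. It understates the change of low genes. Ratios and single values were compared by exact permutation tests over 70 allocations. Python 3.11.15 with numpy 2.4.6 and pandas 2.3.3 was used. Alternatives were a pseudocount of 0.1, other filters, fold change thresholds, scalings and totals, no variance trend, the replicate block, voom on recovered fragments, and each library left out in turn. The labels number the samples and do not say which animal each came from, and p-values measure the spread between these samples.

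The members and gene lists were chosen with earlier results of these data known. The text names all members, up to 4 called genes per list with the largest fold change, ratio partners, genes at 0 or not tested, and the 5 genes nearest to the 2 members with the largest log2 fold change of FPKM + 1. Dysf, Trim72, S100a1, Tsc22d3, Anxa9, Fpr1, Fpr2, Myh6 and Tnni3 and genes sharing words were named after their values were seen. No protein sequences were used. The values of 1 listed gene are not reported here.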

Additional observations from a re-analysis of the deposited data

Results flagged for a closer look

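Of 46 groups of 4 values examined (FPKM, shares and ratios of the annexins), 1 held a library far from the others, and chance flags about 1 in 20 such groups. Anxa7 in ANG II 1 was at 91.9 FPKM, while the other 3 ANG II libraries lay between 79.97 and 81.5 FPKM. Without that library the log2 fold change of Anxa7 was 0.43 and it was still not called.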

How the results depend on the processing

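The count of all called genes was 2981, against 6447 with no fold change threshold and 795 with a threshold of 1. These are 15.4%, 33.3% and 4.11% of all tested genes. The count ran from 2763 to 3109 with 1 library left out. Called annexins were 6, against 3 with a threshold of 1 and 6 to 7 with 1 library left out. With no fold change threshold, called genes numbered 5 of 5 tested S100 partners, 8 of 14 for membrane repair and 2 of 4 penta-EF-hand genes, against 33.3%. With a threshold of 1 they numbered 3 of 7 for the plasminogen system and 0 of 14 for phosphatidylserine exposure and engulfment, against 4.11%. In the latter list 11 of the 14 tested genes had an unadjusted p-value under 0.05 with a higher mean and 1 with a lower, against 43% of all tested genes. Quantile normalization gave 5 for phosphatidylserine and 1 for penta-EF-hand genes, against 12.4% of all tested genes. Formyl peptide receptors called were 1 with voom on recovered fragments and 0 to 1 with 1 library left out. The direction of Anxa6 turned with median-of-ratios scaling (-0.025). The cause was not tested for any of these, apart from the thresholds, which change the rule itself.

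Libraries of the same replicate number did not deviate together, with correlations from -0.032 to 0.062. Those of unlike numbers ran from -0.088 to 0.094. No shared deviation by number was seen, but the check cannot show whether the numbers pair the samples. With the replicate block 2968 genes and 6 annexins were called. The replicate block on ratios allows no exact p below 0.125, and 0.208 after adjustment, for Anxa2 over S100a10 (0.53), Anxa5 over Anxa6 (0.40) and Anxa7 over Anxa11 (0.66), which says nothing about their stability. With 1 library left out, the log2 difference ran from 0.48 to 0.58, from 0.34 to 0.44 and from 0.60 to 0.73 for these, and from 0.18 to 0.37 for Anxa1 over Anxa2. Among all values under the alternatives, 682 kept the direction and the side of the threshold (counts of genes within 1.5 times), 14 counts moved further, 6 values lost and 5 gained their call and 1 turned in direction. Depth limited Anxa8 and the formyl peptide receptors, with as few as 5 and 0 fragments.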
